A study of Mus musculus with 4 samples.

Results

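The presynaptic vesicle release machinery was followed as a fixed module of 36 genes, taken by symbol from the 32286 features counted in single nuclei of mouse primary motor cortex. All 36 symbols were found, and each was read in every neuron subclass and every library. They were chosen by symbol, with earlier results of these data known. The module holds calcium sensors (Syt1, Syt2, Syt3, Syt4, Syt7, Syt9, Syt10, Doc2b), SNARE proteins (Snap25, Stx1a, Vamp1, Vamp2), complexins (Cplx1, Cplx2), priming factors (Unc13a, Unc13b, Unc13c) and active zone scaffolds (Rims1, Rims2, Rims3, Rims4, Bsn, Pclo, Erc1, Erc2). It also holds synapsins (Syn1, Syn2, Syn3), Rab3 proteins with their effector (Rab3a, Rab3c, Rph3a), vesicle membrane proteins (Sv2a, Sv2c, Syp) and the factors that take SNARE complexes apart (Nsf, Napb).

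Neurotransmitter release runs through these proteins in order. Rab3 and the active zone scaffolds bring a vesicle to the release site, Unc13 proteins prime it, and the SNARE complex of Snap25, Stx1a and a Vamp draws vesicle and membrane together under the control of complexin. Calcium that binds a synaptotagmin then triggers fusion, and Nsf with its SNAP adaptor recycles the SNARE complex. Many steps have paralogs that neuron types use in different mixtures, and those mixtures are known to set how fast and how reliably a cortical synapse releases.

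The mice were C57BL/6N, and each of 4 groups is 1 library. An adeno-associated virus, AAV8, was given locally and carried FLAG-tagged SIK3 behind hSyn, the human synapsin promoter, which drives expression in neurons: in 1 group SIK3 lacked exon 13 (described by the study's design as gain of function), and in another it was wild type. The remaining 2 groups had no vector: 1 was kept awake by gentle handling (sleep deprivation), and 1 slept ad lib. SIK3 is a salt-inducible kinase, and mice whose Sik3 skips exon 13 are known for long sleep. How many animals a library holds, their age and their sex are not given in the sources used here. With 1 library per group, a difference between groups is a difference between 2 libraries with no replicate check, no p-value can be given, and the intervals cover counting error only.

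The 4 libraries held 43655557 to 54070503 UMIs (unique molecular identifiers, counted RNA molecules) in 5944 to 9438 barcodes, and 25408 nuclei were kept. Clusters were named from marker genes, and a name such as Pvalb-like stands for clusters that are like that type by its markers; the 36 members took no part in clustering. Excitatory neuron-like nuclei numbered 2146 in the exon 13 deleted, 2742 in the wild-type vector, 1869 in the sleep deprivation and 3733 in the ad lib sleep library, and inhibitory ones 535, 765, 377 and 985 in the same order. The sleep deprivation library stood apart in depth: its excitatory nuclei had a median of 13583 UMIs, against 7343 in the ad lib sleep library. Of its nuclei 27.71%, against 7.4%, fell in an unnamed cluster of low depth (median 1030 UMIs over 3439 nuclei). The leading genes of that cluster were Nefm, Nefl, the vector transcript and other, mostly neuronal genes, among them the member Rab3a. Striatal-like nuclei, 213 to 417 per library, lay outside the labelled cortex. Pairs of libraries shared 9 to 16 barcodes. Levels are given as CPM, the UMIs of a gene per 1000000 UMIs of its class in a library, and they are compared within a gene and not between genes.

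The windows of 4 promoters are printed here because the genes carry the cell type and sleep deprivation results that follow, and because Syn1 is the mouse counterpart of the gene whose human promoter drives both vectors. Each is a window of 300 bases around the annotated start, on the strand of the gene, 5′ to 3′, from RefSeq on GRCm38.p6: Syn1 at chrX:20920869-20921168 (minus strand), Cplx1 at chr5:108549978-108550277 (minus strand), Syt2 at chr1:134646362-134646661 (plus strand) and Vamp1 at chr6:125215331-125215630 (plus strand). Capitals mark TGACG, the core of the cAMP response element, with its complement CGTCA; TTCAGCACC, the left part of the neuron-restrictive silencer element; and GGGCGG, the GC box, with its complement CCGCCC.
Syn1: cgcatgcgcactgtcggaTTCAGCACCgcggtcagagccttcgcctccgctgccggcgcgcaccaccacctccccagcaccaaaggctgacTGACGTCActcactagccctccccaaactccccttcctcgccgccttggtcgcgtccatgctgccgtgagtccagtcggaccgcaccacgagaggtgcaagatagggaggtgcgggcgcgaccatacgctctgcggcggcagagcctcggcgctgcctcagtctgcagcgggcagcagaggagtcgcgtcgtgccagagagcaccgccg
Cplx1: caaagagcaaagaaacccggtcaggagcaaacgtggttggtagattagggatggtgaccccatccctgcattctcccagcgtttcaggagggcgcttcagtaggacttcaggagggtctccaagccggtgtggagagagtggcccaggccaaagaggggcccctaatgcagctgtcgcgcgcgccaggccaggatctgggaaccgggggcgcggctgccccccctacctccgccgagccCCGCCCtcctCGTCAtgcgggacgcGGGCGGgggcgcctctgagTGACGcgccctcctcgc
Syt2: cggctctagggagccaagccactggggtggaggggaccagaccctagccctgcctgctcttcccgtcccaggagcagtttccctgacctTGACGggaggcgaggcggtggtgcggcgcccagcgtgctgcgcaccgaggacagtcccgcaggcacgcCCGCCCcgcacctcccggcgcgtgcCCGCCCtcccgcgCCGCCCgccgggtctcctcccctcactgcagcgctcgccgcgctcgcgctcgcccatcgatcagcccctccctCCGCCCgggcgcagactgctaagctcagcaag
Vamp1: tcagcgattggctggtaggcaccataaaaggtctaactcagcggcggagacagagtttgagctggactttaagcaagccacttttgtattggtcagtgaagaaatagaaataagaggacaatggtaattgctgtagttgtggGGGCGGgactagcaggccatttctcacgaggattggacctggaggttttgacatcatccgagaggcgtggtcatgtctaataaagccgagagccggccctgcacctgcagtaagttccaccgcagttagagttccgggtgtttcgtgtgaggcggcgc
Among 32851 windows in the table, 34 belonged to 28 of the members. The complete cAMP response element TGACGTCA stood in 1.79% of all windows and in 1 member gene, Syn1, where both core matches overlap in it. Its core TGACG stood in 20.8% of all windows and in 8 member genes (Cplx1, Erc1, Rab3a, Stx1a, Syn1, Syt10, Syt2 and Unc13a). The silencer letters TTCAGCACC stood in 0.371% of all windows and in Syn1 and Unc13a. The GC box stood in 35.7% of all windows and in 22 member genes, and member windows also had more G and C, with a median of 64.2% against 52.7% over all windows. TATAAA stood in 13.6% of all windows and in 0 member genes, the MEF2 motif in 3.19% and in 0, and the EGR motif GCGTGGGCG in 0.612% and in Unc13a alone. All motifs were searched on both strands, and a match describes the letters of the window.

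**Figure D1:**
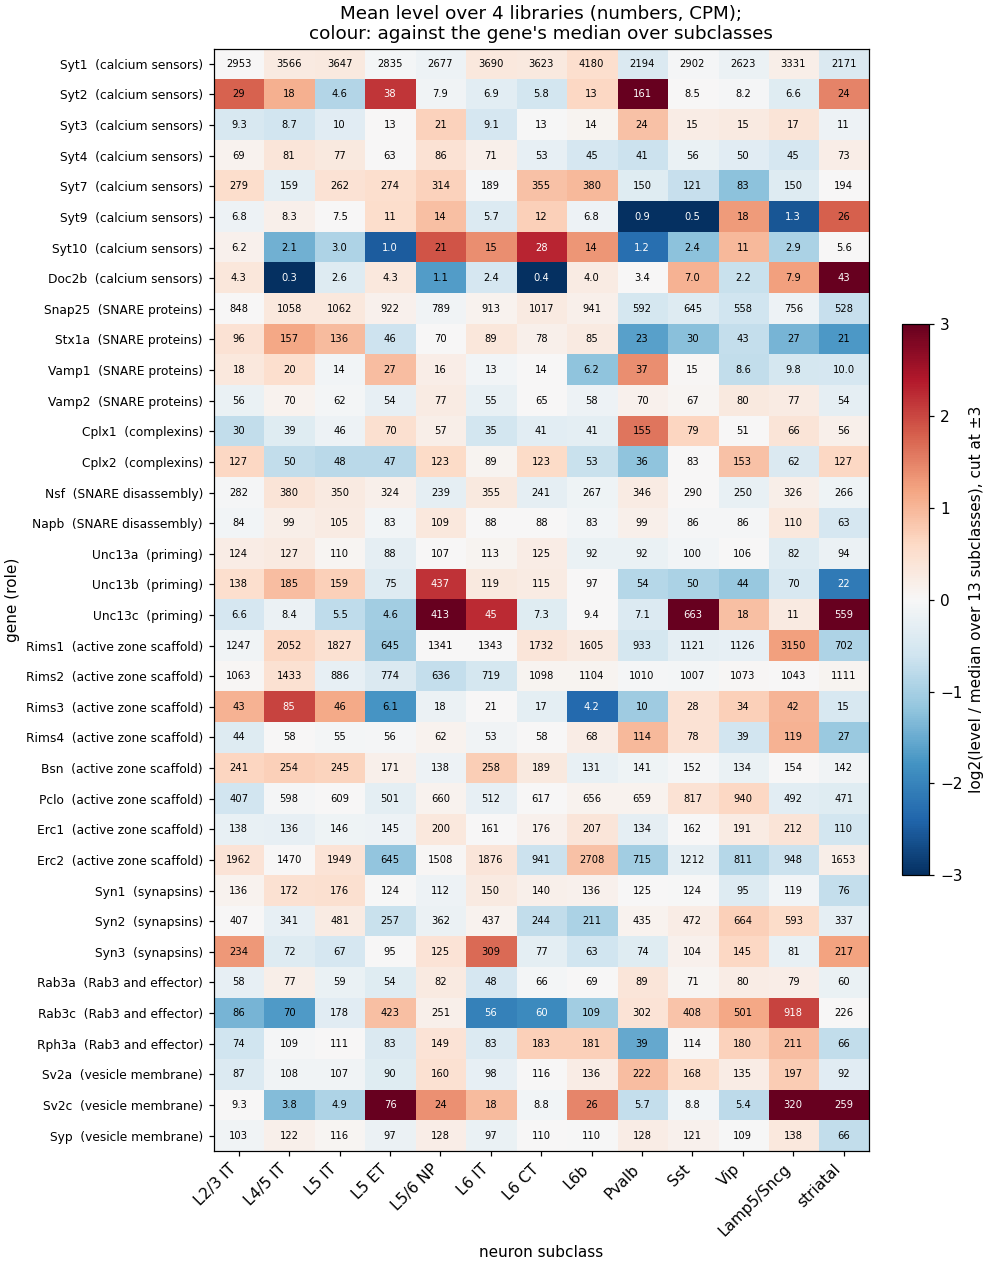
Mean CPM over the 4 libraries of the 36 members (rows, by role) in 13 neuron subclasses (columns), with the colour showing the level relative to the gene's own median subclass on a log2 scale. Syt2 stands out in the Pvalb-like column, Unc13c in the Sst-like and striatal-like columns, and Rab3c and Sv2c in the Lamp5/Sncg-like column.

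Summed over the module, excitatory nuclei gave 12254 CPM in the exon 13 deleted, 12134 in the wild-type vector, 11855 in the sleep deprivation and 11639 in the ad lib sleep library, and inhibitory nuclei 10737, 11156, 11089 and 10370 CPM in the same order. Astrocyte-like nuclei were at 3679 to 4252 CPM over the 4 libraries. The sum thus moved little between libraries, while some members differed between neuron subclasses by more than 10-fold. Members of high count weigh most in the sum: in excitatory nuclei the mean was 3369 CPM for Syt1 against 15.9 CPM for Sv2c. Of the 36 members, 18 had the same highest subclass in all 4 libraries, and for 13 the range over libraries in the highest subclass did not overlap that in the second. The same was not counted over all genes, so neither count sets the module apart from other genes. Lamp5/Sncg-like nuclei were highest for 8 members, Pvalb-like for 6, L4/5 IT-like for 5, Vip-like for 4 and L6b-like for 3. L5/6 NP-like, striatal-like, L6 IT-like and L5 IT-like nuclei were highest for 2 each, and L6 CT-like and Sst-like nuclei for 1 each. The highest subclass is named by the mean. For Syt3, Syt4, Vamp2, Unc13a, Rab3a, Napb and Erc1, 3 different subclasses came on top over the 4 libraries. Since the subclasses were built from other genes of the same nuclei, these levels are a description.

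Among the calcium sensors, Syt2 (ENSMUSG00000026452, chromosome 1, 134646677 to 134762593, plus strand), a fast sensor found in fast-spiking interneurons, stood highest over its median subclass. In Pvalb-like nuclei it was at 153 CPM in the exon 13 deleted library, 154 CPM in the wild-type vector library, 166 CPM in the sleep deprivation library and 173 CPM in the ad lib sleep library. L5 ET-like nuclei came second at 44.1 (exon 13 deleted), 34.4 (wild-type vector), 40.9 (sleep deprivation) and 31.8 CPM (ad lib sleep), and L5 IT-like nuclei were lowest with a mean of 4.63 CPM. All 4 Pvalb-like values lay above all values of any other subclass. L2/3 IT-like nuclei were at 26.5 (exon 13 deleted), 30.8 (wild-type vector), 27.9 (sleep deprivation) and 30.9 CPM (ad lib sleep). These values lay below all L5 ET-like values, though closely in the ad lib sleep library (30.9 against 31.8 CPM). Syt2 overlaps the gene Ppp1r12b on the other strand, and how strand was counted is not given in the sources used here.

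Syt1, the main fast sensor of forebrain synapses, was found throughout, with its highest mean of 4180 CPM in L6b-like nuclei and its lowest of 2171 CPM in striatal-like nuclei. Syt7, a slow, high-affinity sensor tied to asynchronous release and facilitation, was highest in L6b-like (mean 380.0 CPM) and L6 CT-like nuclei (355 CPM) and lowest in Vip-like nuclei (83.1 CPM). Syt10 reached 27.7 CPM in the exon 13 deleted library, 27.8 CPM in the wild-type vector library, 26.5 CPM in the sleep deprivation library and 28.6 CPM in the ad lib sleep library in L6 CT-like nuclei, and its lowest mean was 0.995 CPM in L5 ET-like nuclei. Both slow and fast sensors were therefore unequally spread over the excitatory layers. Syt9, a fast sensor of limbic and striatal neurons, was at 30.2 CPM in the exon 13 deleted library, 28.8 CPM in the wild-type vector library, 26.3 CPM in the sleep deprivation library and 19.8 CPM in the ad lib sleep library in striatal-like nuclei. Doc2b, a high-affinity sensor linked to spontaneous release, was at 38.2 CPM in the exon 13 deleted library, 37.3 CPM in the wild-type vector library, 57.8 CPM in the sleep deprivation library and 39.6 CPM in the ad lib sleep library in the same nuclei and had a mean of 0.29 CPM in L4/5 IT-like nuclei. Striatal-like nuclei thus held the highest levels of these sensors. Syt3 was highest in Pvalb-like nuclei (mean 23.5 CPM) and Syt4, found on dense-core vesicles, in L5/6 NP-like nuclei (mean 85.9 CPM).

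SNARE proteins and complexins split by neuron type as well. Stx1a, a syntaxin of the plasma membrane, was highest in L4/5 IT-like nuclei, at 147 CPM in the exon 13 deleted library, 153 CPM in the wild-type vector library, 167 CPM in the sleep deprivation library and 161 CPM in the ad lib sleep library, and lowest in striatal-like nuclei, with a mean of 21.4 CPM. Vamp1, the vesicle SNARE of fast synapses, was at 36 CPM in the exon 13 deleted library, 41.3 CPM in the wild-type vector library, 36.1 CPM in the sleep deprivation library and 35.1 CPM in the ad lib sleep library in Pvalb-like nuclei, and L5 ET-like nuclei came second with a mean of 27 CPM. Pvalb-like and L5 ET-like nuclei therefore led for both Syt2 and Vamp1. Vamp1 overlaps Tapbpl and Cd27 on the other strand. Vamp2, the main vesicle SNARE of the forebrain, was highest in Vip-like nuclei (mean 79.5 CPM), and Snap25 in L5 IT-like nuclei (mean 1062 CPM).

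The complexins, which clamp and promote SNARE-driven fusion, were highest in different inhibitory subclasses. Cplx1 (ENSMUSG00000033615, chromosome 5, 108518554 to 108550024, minus strand) was at 131 CPM in the exon 13 deleted library, 157 CPM in the wild-type vector library, 194 CPM in the sleep deprivation library and 137 CPM in the ad lib sleep library in Pvalb-like nuclei, where the mean was 155 CPM against 79.4 CPM in Sst-like nuclei, the second subclass. Cplx2 (ENSMUSG00000025867, chromosome 13, 54371349 to 54383917, plus strand) was at 151 CPM in the exon 13 deleted library, 124 CPM in the wild-type vector library, 198 CPM in the sleep deprivation library and 137 CPM in the ad lib sleep library in Vip-like nuclei, whereas its mean in Pvalb-like nuclei was 36 CPM. The highest Cplx2 level in the Vip-like and the highest Cplx1 level in the Pvalb-like nuclei were both in the sleep deprivation library.

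By mean level, the 3 priming factors were each highest in a different subclass. Unc13a, the main priming factor of cortical excitatory synapses, was highest in L4/5 IT-like nuclei (mean 127 CPM). L6 CT-like nuclei were close (mean 125 CPM), and the ranges of Unc13a in these 2 subclasses overlapped over the libraries. Unc13b (ENSMUSG00000028456, chromosome 4, 43058953 to 43264871, plus strand), which primes a subset of synapses, was at 421 CPM in the exon 13 deleted library, 446 CPM in the wild-type vector library, 467 CPM in the sleep deprivation library and 416 CPM in the ad lib sleep library in L5/6 NP-like nuclei. Its second subclass was L4/5 IT-like with a mean of 185 CPM, and striatal-like nuclei were lowest at 22.4 CPM. Unc13b thus marked 1 excitatory subclass without overlap between libraries. Unc13c (ENSMUSG00000062151, chromosome 9, 73479422 to 73968966, minus strand), the paralog best known from the cerebellum, was at 586 CPM in the exon 13 deleted library, 726 CPM in the wild-type vector library, 616 CPM in the sleep deprivation library and 725 CPM in the ad lib sleep library in Sst-like nuclei. Striatal-like nuclei had 534 (exon 13 deleted), 597 (wild-type vector), 574 (sleep deprivation) and 529 CPM (ad lib sleep), L5/6 NP-like nuclei 515 (exon 13 deleted), 424 (wild-type vector), 364 (sleep deprivation) and 350.0 CPM (ad lib sleep), and L5 ET-like nuclei a mean of 4.59 CPM. Sst-like and striatal-like values of Unc13c overlapped over the libraries.

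Active zone scaffolds differed between their highest and lowest subclass means by 1.93-fold (Erc1) to 20.4-fold (Rims3). Rims3, a short Rim protein, was at 80.5 CPM in the exon 13 deleted library, 87.3 CPM in the wild-type vector library, 105 CPM in the sleep deprivation library and 68 CPM in the ad lib sleep library in L4/5 IT-like nuclei and at a mean of 6.1 CPM in L5 ET-like nuclei. Erc2, the scaffold CAST, was at 2631 CPM in the exon 13 deleted library, 2704 CPM in the wild-type vector library, 2876 CPM in the sleep deprivation library and 2621 CPM in the ad lib sleep library in L6b-like nuclei, with means of 645 CPM in L5 ET-like and 715 CPM in Pvalb-like nuclei. Low levels of both thus fell in L5 ET-like nuclei. The lowest mean of Rims3, however, was 4.17 CPM in L6b-like nuclei, where Erc2 was highest. Rims1, which tethers calcium channels and vesicles, was highest in Lamp5/Sncg-like (mean 3150 CPM) and lowest in L5 ET-like nuclei (645 CPM). Rims2 was highest in L4/5 IT-like nuclei (mean 1433 CPM), Rims4 and Erc1 in Lamp5/Sncg-like nuclei (119 and 212 CPM), Bsn in L6 IT-like nuclei (258 CPM) and Pclo in Vip-like nuclei (940.1 CPM).

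Of the proteins that hold and dock vesicles, Rab3c (ENSMUSG00000021700, chromosome 13, 110054187 to 110280996, minus strand), a vesicle GTPase, was at 941 CPM in the exon 13 deleted library, 889 CPM in the wild-type vector library, 974 CPM in the sleep deprivation library and 869 CPM in the ad lib sleep library in Lamp5/Sncg-like nuclei, against means of 501 CPM in Vip-like and 55.5 CPM in L6 IT-like nuclei. Among excitatory subclasses L5 ET-like nuclei stood highest for Rab3c, at 380.1 (exon 13 deleted), 448 (wild-type vector), 435 (sleep deprivation) and 427 CPM (ad lib sleep). Rph3a, the Rab3 effector rabphilin, was at 176 CPM in the exon 13 deleted library, 206 CPM in the wild-type vector library, 259 CPM in the sleep deprivation library and 203 CPM in the ad lib sleep library in Lamp5/Sncg-like nuclei and at a mean of 38.7 CPM in Pvalb-like nuclei. Lamp5/Sncg-like nuclei thus led for both. Sv2c, a vesicle glycoprotein, was at 325 CPM in the exon 13 deleted library, 349.6 CPM in the wild-type vector library, 279 CPM in the sleep deprivation library and 325 CPM in the ad lib sleep library in Lamp5/Sncg-like, 252 (exon 13 deleted), 284 (wild-type vector), 233 (sleep deprivation) and 269 CPM (ad lib sleep) in striatal-like, and 78 (exon 13 deleted), 85.8 (wild-type vector), 78.9 (sleep deprivation) and 60.7 CPM (ad lib sleep) in L5 ET-like nuclei, with a mean of 3.76 CPM in L4/5 IT-like nuclei. Sv2a, the related protein that binds levetiracetam, and Rab3a were highest in Pvalb-like nuclei (means 222 and 88.7 CPM). Syp and Napb were highest in Lamp5/Sncg-like nuclei (138 and 110.2 CPM) and Nsf in L4/5 IT-like nuclei (380.1 CPM). Among synapsins, which tie vesicles to the cytoskeleton, Syn1 was highest in L5 IT-like (176 CPM), Syn2 in Vip-like (664 CPM) and Syn3 in L6 IT-like nuclei (309 CPM).

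**Figure D2:**
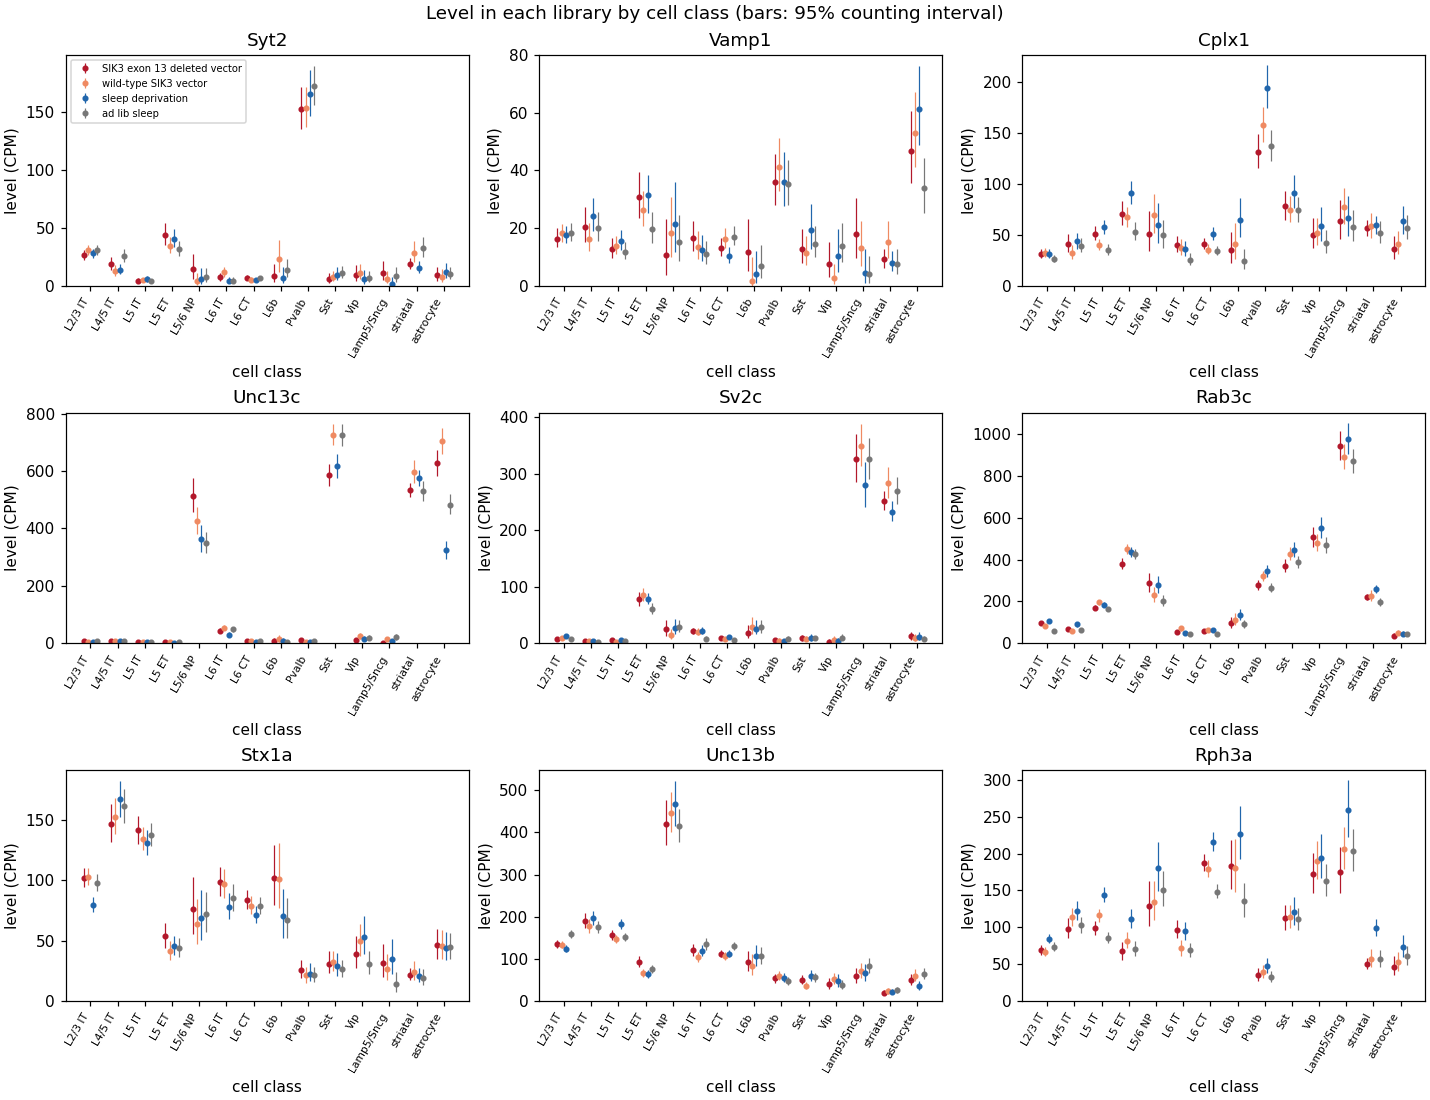
CPM per library (points, with 95% counting intervals) of 9 members in neuron classes and astrocyte-like nuclei. The 4 libraries of a class lie close together for Syt2 in Pvalb-like nuclei (153 to 173 CPM), while Unc13c in astrocyte-like nuclei spreads over 324 to 703 CPM.

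To read these orders against all genes, a gene was counted where its lowest level over the 4 libraries in 1 class was at least 2-fold its highest level in the other, with a mean of at least 20 CPM. Inhibitory nuclei were above excitatory nuclei for 4 of 32 measured members, where 5.33% of all measured genes met the rule. Syt2 was at 56.5 to 66.5 CPM in inhibitory against 16 to 16.5 CPM in excitatory nuclei, 3.82-fold between the means. Unc13c was at 188 to 239 CPM in inhibitory against 16.4 to 23.6 CPM in excitatory nuclei, 10.02-fold between the means. Rab3c was at 431 to 507 CPM in inhibitory against 115 to 143 CPM in excitatory nuclei, 3.56-fold between the means, and Sv2c at 46.5 to 61.7 CPM in inhibitory against 12.8 to 18.5 CPM in excitatory nuclei, 3.39-fold between the means. The inhibitory side thus held 1 calcium sensor, 1 priming factor and 2 vesicle proteins. In the other direction, where the background was 4.18%, 2 of 32 members met the rule. Stx1a was at 92.1 to 104 CPM in excitatory against 23.6 to 31.9 CPM in inhibitory nuclei, 3.39-fold between the means, and Unc13b at 133 to 150.5 CPM in excitatory against 50.8 to 56.6 CPM in inhibitory nuclei, 2.65-fold between the means.

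Pvalb-like nuclei were above the other inhibitory nuclei for 2 of 33 members, against 1.98% of all genes. Syt2 was at 153 to 173 CPM in Pvalb-like against 6.44 to 9.05 CPM in other inhibitory nuclei, 20.3-fold between the means, and Vamp1 at 35.1 to 41.3 CPM in Pvalb-like against 9.24 to 13.2 CPM in other inhibitory nuclei, 3.18-fold between the means. The other inhibitory nuclei were above Pvalb-like nuclei for 4 of 33 members, against 4.11% of all genes. Unc13c was at 289 to 354 CPM in other inhibitory against 4.66 to 10.4 CPM in Pvalb-like nuclei, 45.5-fold between the means, and Sv2c at 71.2 to 89.7 CPM in other inhibitory against 4.07 to 8.36 CPM in Pvalb-like nuclei, 14-fold between the means. Rph3a was at 144 to 175 CPM in other inhibitory against 32.2 to 47.1 CPM in Pvalb-like nuclei, 4.04-fold between the means, and Rims3 at 31.2 to 36.3 CPM in other inhibitory against 8.36 to 11.6 CPM in Pvalb-like nuclei, 3.33-fold between the means. Pvalb-like nuclei thus combined a high fast sensor and vesicle SNARE with low Unc13c, Sv2c, Rph3a and Rims3. Low Unc13c and Sv2c were not particular to them. Over the sleep deprivation and ad lib sleep libraries, Sst-like nuclei (mean over 4 libraries 663 CPM) were the only inhibitory subclass with Unc13c above the floor of 20 CPM. For Sv2c the only one was Lamp5/Sncg-like (mean 320 CPM). With each nucleus thinned to 2000 UMIs the counts were 1 of the members above and 2 of the members below, and the share of all genes at that depth is not given here.

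L5 ET-like nuclei, the neurons that project out of the cortex, were above the other excitatory nuclei for 3 of 32 members (background 2.1%). Syt2 was at 31.8 to 44.1 CPM in L5 ET-like against 13.3 to 14.9 CPM in other excitatory nuclei, 2.7-fold between the means. Rab3c was at 380.1 to 448 CPM in L5 ET-like against 83.1 to 110.3 CPM in other excitatory nuclei, 4.24-fold between the means, and Sv2c at 60.7 to 85.8 CPM in L5 ET-like against 7.97 to 11.6 CPM in other excitatory nuclei, 7.95-fold between the means. These are 3 of the 4 members that were also high in inhibitory nuclei. The other excitatory nuclei were above L5 ET-like nuclei for 4 of 32 members (background 2.44%). Rims1 was at 1553 to 1675 CPM in other excitatory against 607 to 708 CPM in L5 ET-like nuclei, 2.47-fold between the means, and Erc2 at 1560.1 to 1769.7 CPM in other excitatory against 628 to 687 CPM in L5 ET-like nuclei, 2.6-fold between the means. Rims3 was at 34.6 to 42.6 CPM in other excitatory against 5.63 to 6.67 CPM in L5 ET-like nuclei, 6.28-fold between the means, and Unc13c at 18 to 25.1 CPM in other excitatory against 2.11 to 6.15 CPM in L5 ET-like nuclei, 4.97-fold between the means. All but Unc13c among these are active zone scaffolds.

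Striatal-like nuclei were above cortical excitatory nuclei for 3 of 33 members (background 5.64%). Unc13c was at 529 to 597 CPM in striatal-like against 16.4 to 23.6 CPM in excitatory nuclei, 26.5-fold between the means. Sv2c was at 233 to 284 CPM in striatal-like against 12.8 to 18.5 CPM in excitatory nuclei, 16.4-fold between the means, and Doc2b at 37.3 to 57.8 CPM in striatal-like against 2.13 to 2.78 CPM in excitatory nuclei, 17.2-fold between the means. Excitatory nuclei were above striatal-like nuclei for 2 of 33 members (background 6.68%). Stx1a was at 92.1 to 104 CPM in excitatory against 18.7 to 24.2 CPM in striatal-like nuclei, 4.65-fold between the means, and Unc13b at 133 to 150.5 CPM in excitatory against 19.9 to 25.3 CPM in striatal-like nuclei, 6.3-fold between the means.

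Against astrocyte-like nuclei, 12 of 30 members were higher in excitatory nuclei, where the background was 12.1%: Syt1, Syt7, Syn1, Snap25, Stx1a, Unc13a, Unc13b, Rims1, Rims2, Rab3c, Pclo and Erc2. Syt1 was at 3169.8 to 3480.4 CPM in excitatory against 334 to 516 CPM in astrocyte-like nuclei, 7.55-fold between the means, and Erc2 at 1474 to 1660.0 CPM in excitatory against 76.4 to 106 CPM in astrocyte-like nuclei, 17.7-fold between the means. Rims1 was at 1464 to 1588 CPM in excitatory against 74.8 to 114 CPM in astrocyte-like nuclei, 15.3-fold between the means. In the other direction, with a background of 15.5%, 1 of 30 members met the rule: Unc13c, at 324 to 703 CPM in astrocyte-like against 16.4 to 23.6 CPM in excitatory nuclei, 25.3-fold between the means. By library, Unc13c in astrocyte-like nuclei was at 627 CPM in the exon 13 deleted library, 703 CPM in the wild-type vector library, 324 CPM in the sleep deprivation library and 483 CPM in the ad lib sleep library, in oligodendrocyte precursor-like nuclei at 595 (exon 13 deleted), 558 (wild-type vector), 539 (sleep deprivation) and 534 CPM (ad lib sleep), and in oligodendrocyte-like nuclei at a mean of 12.6 CPM. The oligodendrocyte-like level was thus the lowest of these 3 glial levels, and the part of free RNA in them was not tested.

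Several members with short genes had levels in glia near those in neurons. Mean levels in astrocyte-like against excitatory nuclei were 118 against 60.6 CPM for Vamp2, 121 against 90.6 CPM for Cplx2 and 109.5 against 61.6 CPM for Rab3a. Cplx1 was at 49.5 against 41.5 CPM, and Syp at 112 against 108 CPM. The cluster of low depth had more of all 5, with Rab3a at 5.99-fold, Vamp2 at 4.72-fold, Cplx1 at 4.4-fold, Cplx2 at 4.16-fold and Syp at 3.27-fold the excitatory level. How far free RNA sets the levels of these 5 members in any class was not tested, and the values in glia stand beside the sleep deprivation values of Cplx1, Cplx2 and Rab3a.

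Sleep deprivation addresses how the module differs after lost sleep. Cplx2 had the highest ratio of the measured members in both neuron classes, and Cplx2 and Cplx1 were higher in the sleep deprivation library than in the ad lib sleep library in all 13 neuron subclasses, as were Rph3a, Rab3c and Bsn. Among the members above the floor of 20 CPM, none was at or under 0.8-fold in either class. The calcium sensors Syt1, Syt4 and Syt7 lay below the ad lib sleep level in excitatory nuclei.

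In excitatory nuclei, 28 members passed the floor of 20 CPM on the mean of both libraries, and 4 were at least 25% higher after sleep deprivation, against 6.48% of all measured genes. Cplx2 was at 111 CPM in the sleep deprivation library against 74.8 CPM in the ad lib sleep library (ratio 1.49, 95% interval 1.41 to 1.57). Cplx1 was at 49.1 CPM in the sleep deprivation library against 34.3 CPM in the ad lib sleep library (ratio 1.43, 95% interval 1.32 to 1.55), and Rph3a at 134 CPM in the sleep deprivation library against 98.8 CPM in the ad lib sleep library (ratio 1.36, 95% interval 1.29 to 1.42). Syn3, the synapsin highest in L6 IT-like nuclei, was at 155 CPM in the sleep deprivation library against 122 CPM in the ad lib sleep library (ratio 1.28, 95% interval 1.22 to 1.33). The next member, Rab3c, stayed just under the mark at 143 CPM in the sleep deprivation library against 115 CPM in the ad lib sleep library (ratio 1.247, 95% interval 1.19 to 1.30). These members belong to the clamp of the SNARE complex, the Rab3 docking step and the synapsins. With TMM scaling 8 of 28 members, and with nuclei thinned to 2000 UMIs 9 of 29, were past 25% higher, and at 1.5-fold 0 were. The share of all genes under these settings is not given here, so these counts cannot be set against it.

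At the low end, 0 of the 28 were at most 0.8-fold, against 8.82% of all genes. Just under the floor, Unc13c was at 16.4 CPM in the sleep deprivation library against 22.5 CPM in the ad lib sleep library (ratio 0.73, 95% interval 0.64 to 0.82); with a floor of 5 CPM it and Syt9 (ratio 0.79) made the count 2, and with mitochondrial genes and Malat1 left out of the total, or with doublets kept, the count was 1. Syt4 was at 56.1 CPM in the sleep deprivation library against 66.8 CPM in the ad lib sleep library (ratio 0.84) and Syt7 at 251 CPM in the sleep deprivation library against 292 CPM in the ad lib sleep library (ratio 0.86). Syt1 was at 3169.8 CPM in the sleep deprivation library against 3410.1 CPM in the ad lib sleep library (ratio 0.93), and Stx1a at 92.1 CPM in the sleep deprivation library against 100.1 CPM in the ad lib sleep library (ratio 0.92). The 3 calcium sensors measured in excitatory nuclei thus all had ratios below 1. Outside the module, 7 of 9 measured synaptotagmins and other C2 proteins had ratios above 1 in the same nuclei (median log2 ratio 0.18). Unc13b was at 141 CPM in the sleep deprivation library against 150.5 CPM in the ad lib sleep library (ratio 0.93), and its ratio was 1.02 with subclasses weighted equally. Over the 28 members 21 ratios exceeded 1, with a median log2 ratio of 0.10 against -0.01 over all genes, of which 47.4% exceeded 1.

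In inhibitory nuclei, 6 of 32 members were at least 25% higher, against 5.95% of all genes. Cplx2 was at 94.3 CPM in the sleep deprivation library against 63.7 CPM in the ad lib sleep library (ratio 1.48, 95% interval 1.29 to 1.69), and Cplx1 at 119 CPM in the sleep deprivation library against 87.5 CPM in the ad lib sleep library (ratio 1.36, 95% interval 1.21 to 1.53). Rab3a, the main Rab of synaptic vesicles, was at 103 CPM in the sleep deprivation library against 71.8 CPM in the ad lib sleep library (ratio 1.43, 95% interval 1.26 to 1.63). The scaffold Bsn was at 176 CPM in the sleep deprivation library against 126 CPM in the ad lib sleep library (ratio 1.39, 95% interval 1.27 to 1.54). Complexins were thus the members past the mark in both classes. Rab3a stayed just under it in excitatory nuclei, at a ratio of 1.241. Stx1a was at 31.9 CPM in the sleep deprivation library against 23.6 CPM in the ad lib sleep library (ratio 1.35), and Unc13a at 109 CPM in the sleep deprivation library against 86.9 CPM in the ad lib sleep library (ratio 1.255). Stx1a therefore lay on opposite sides of 1 in inhibitory and excitatory nuclei, a difference that 1 library per group cannot test. In the low direction, 0 of 32 were at most 0.8-fold, against 9.1% of all genes. Unc13c was at 189 CPM in the sleep deprivation library against 229 CPM in the ad lib sleep library (ratio 0.82) and Sv2c at 46.5 CPM in the sleep deprivation library against 54.9 CPM in the ad lib sleep library (ratio 0.85). Rims2 was at 949 CPM in the sleep deprivation library against 1077 CPM in the ad lib sleep library (ratio 0.88), and Syn3 at 94.1 CPM in the sleep deprivation library against 105 CPM in the ad lib sleep library (ratio 0.89). Syt2 was at 65.1 CPM in the sleep deprivation library against 66.5 CPM in the ad lib sleep library (ratio 0.98), close to 1. Of the 32 members, 25 exceeded 1, with a median log2 ratio of 0.11 against -0.01 over all genes (48.4% above 1).

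**Figure D3:**
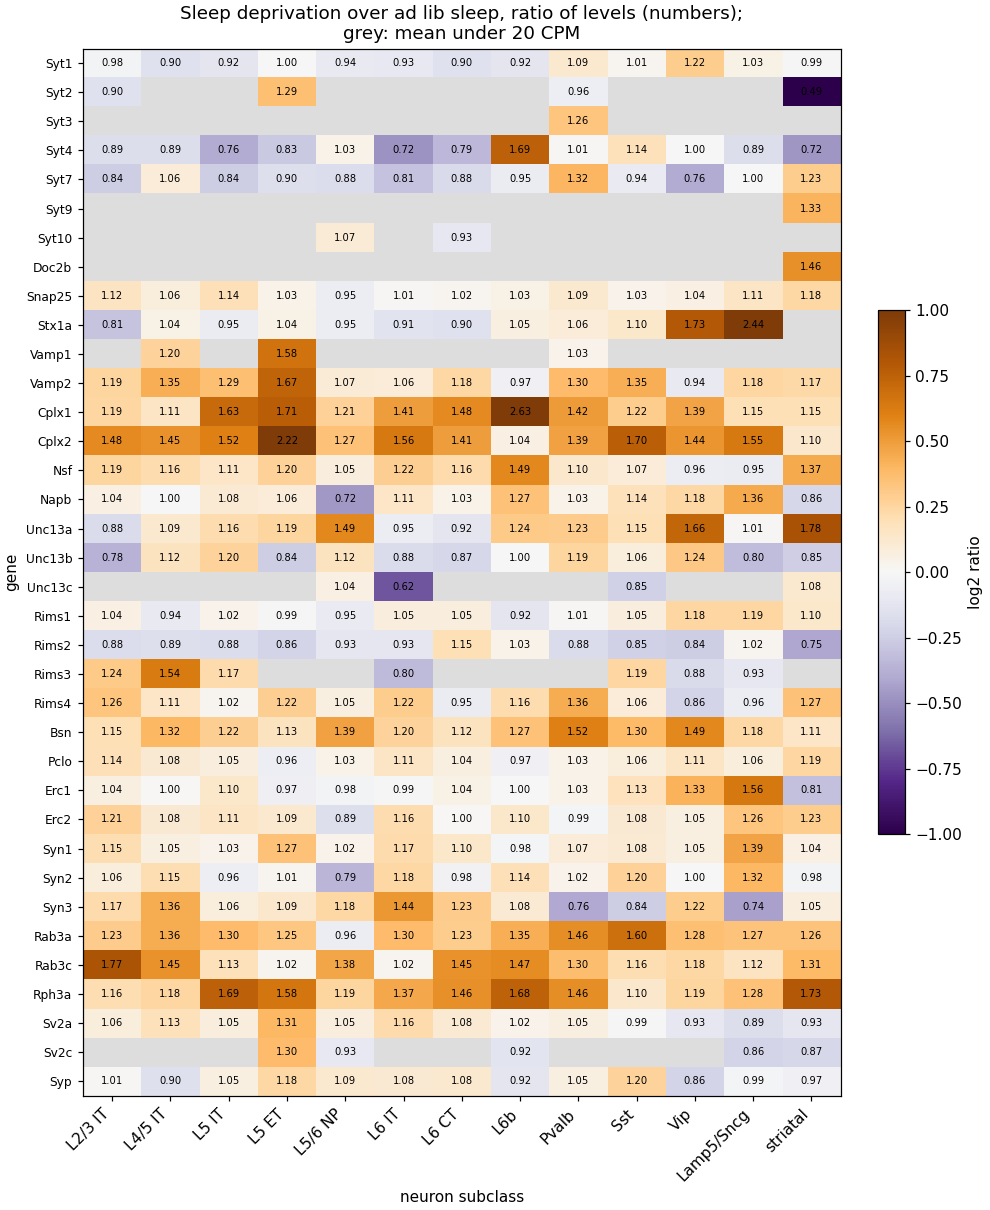
Log2 ratio of CPM, sleep deprivation over ad lib sleep, of each member (rows) in 13 neuron subclasses (columns), with blanks where the mean was under 20 CPM. The Cplx2 and Cplx1 rows are above 0 in all 13 subclasses.

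Across subclasses, which share their library and are not replicates, Cplx2 was above 1 in 13 of 13 and past the 25% mark in 11, with ratios of 1.04 in L6b-like to 2.22 in L5 ET-like nuclei. Cplx1 was past the 25% mark in 7 of 13, with its highest ratio of 2.63 in L6b-like nuclei. Rph3a was past the mark in 8, Rab3c in 7 and Bsn in 6 of 13. Rab3a exceeded 1 in 12 of 13 and the 25% mark in 10. Syn1 and Snap25 exceeded 1 in 12 of 13, at ratios up to 1.39 and 1.18. On the low side, Rims2 and Syt7 exceeded 1 in 3 of 13, and Syt1 and Syt4 in 4 of 13. Syt1 was above 1 in 4 of 4 inhibitory and in 0 of 8 excitatory subclasses.

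Depth and glia moved with these ratios. UMIs of Cplx2 per nucleus were 1.667 in excitatory nuclei of the sleep deprivation library against 0.6151 in those of the ad lib sleep library, 0.5166 against 0.2941 in astrocyte-like and 0.4505 against 0.2406 in oligodendrocyte-like nuclei. In CPM, astrocyte-like nuclei had Cplx2 at 128 CPM in the sleep deprivation library against 118 CPM in the ad lib sleep library (ratio 1.09, 95% interval 0.88 to 1.34), Cplx1 at a ratio of 1.12, Rph3a at 1.21, Rab3a at 1.36 and Bsn at 1.44. In the cluster of low depth Cplx2 was at 516 CPM in the sleep deprivation library against 300.2 CPM in the ad lib sleep library (ratio 1.72), with ratios of 1.48 for Rab3a and 1.44 for Cplx1. Ratios above 1 for Rab3a and Bsn were thus seen in astrocyte-like nuclei as well, while Cplx2 there stayed near 1. Oligodendrocyte-like nuclei had 0.2308 UMIs of Cplx1 per nucleus in the sleep deprivation library against 0.08906 in the ad lib sleep library. For Rab3a they had 0.5018 against 0.3047, at median depths of 3198 against 1816 UMIs. Cplx1 there was thus higher by more than depth was, and Rab3a by less. Of 8 members whose level in the cluster of low depth was at least 2-fold the excitatory level, 7 had an excitatory ratio above 1, with a median of 1.15. Of the 21 others above the floor over 4 libraries, 14 did, with a median of 1.04. The share of all genes in such a split is not given here. Marker lists of other cell types, each summed with all of its genes detected, moved as well. In excitatory nuclei of the sleep deprivation library against those of the ad lib sleep library, striatal markers were at 1055 against 767 CPM, oligodendrocyte markers at 175 against 159 CPM, astrocyte markers at 101 against 132 CPM, microglia markers at 145 against 199.5 CPM, endothelial markers at 18 against 31 CPM, mural markers at 11.2 against 18.3 CPM and inhibitory neuron markers at 27.1 against 34.6 CPM. Striatal and oligodendrocyte markers were thus higher and the other 5 lists lower in the sleep deprivation library. The nuclei's own list, excitatory neuron markers, was at 1948 against 1568 CPM, also higher in the sleep deprivation library. Markers of the L6 IT subclass in excitatory nuclei were at 230.0 against 340.3 CPM. In inhibitory nuclei striatal markers were at 921 against 651 CPM, excitatory neuron markers at 649.5 against 528 CPM, microglia markers at 171 against 220.2 CPM and endothelial markers at 25.5 against 41.4 CPM in the same order. Their part in the ratios was not tested.

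Gene length moved with the ratios too, in opposite directions for the members and for all genes. Members span 3.895 to 856.1 kb with a median of 66.53 kb. In excitatory nuclei, 14 of 17 measured members under 100 kb exceeded 1 after sleep deprivation, against 45.4% of all genes of that length. Their median log2 ratio was 0.12, against -0.02. Of the longer members 7 of 11 exceeded 1, against 53.2% of all genes of that length (median 0.06 against 0.01). Short members thus lay further above all genes of their length than long members did.

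Of 67 other genes of the pathway (further SNAREs, synaptotagmins, Rab effectors, active zone, vesicle and endocytosis genes), 52 were measured in excitatory nuclei; 1 was at least 25% higher after sleep deprivation and 1 at most 0.8-fold. Syt6 was at 41.6 CPM in the sleep deprivation library against 30.4 CPM in the ad lib sleep library (ratio 1.37), Syt13 at 84.4 CPM in the sleep deprivation library against 68 CPM in the ad lib sleep library (ratio 1.24) and Dnm1, the dynamin of vesicle endocytosis in neurons, at 168 CPM in the sleep deprivation library against 136 CPM in the ad lib sleep library (ratio 1.24). In the low direction Stx3 was at 53.7 CPM in the sleep deprivation library against 69.6 CPM in the ad lib sleep library (ratio 0.77), Cadps2, a factor of dense-core vesicle priming, at 274 CPM in the sleep deprivation library against 336 CPM in the ad lib sleep library (ratio 0.82), and Vamp4 at 52.1 CPM in the sleep deprivation library against 60.8 CPM in the ad lib sleep library (ratio 0.86). Of these 52 genes, 31 exceeded 1. In inhibitory nuclei 52 were measured, with 1 past the mark upward and 2 downward.

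**Figure D4:**
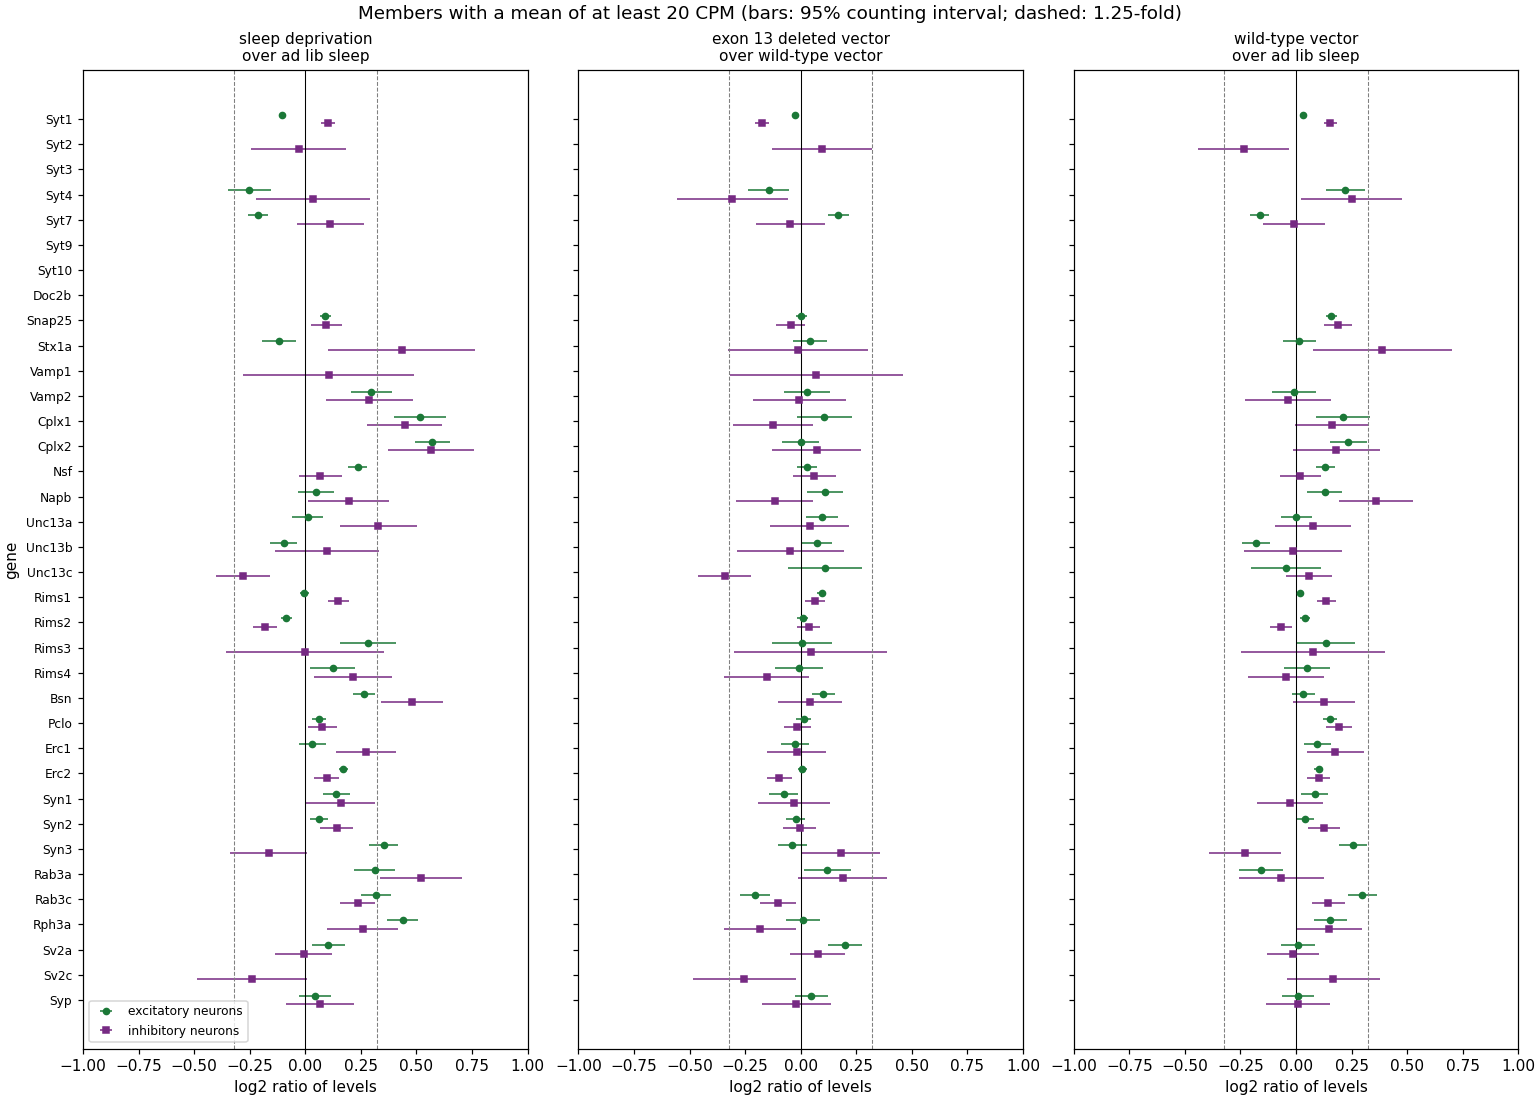
Log2 ratio of CPM of each member in 3 comparisons (panels), in excitatory (circles) and inhibitory nuclei (squares), with 95% counting intervals and dashed lines at the 25% mark. Complexins lie past the upper line after sleep deprivation, while members of the exon 13 deleted over wild-type vector panel lie within the lines except Unc13c in inhibitory nuclei.

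The exon 13 deleted against the wild-type vector asks what the deletion adds to SIK3 delivered by the same virus. Excitatory nuclei differed little: of 29 measured members, 0 were at least 25% higher, against 2.04% of all genes, and 0 were at most 0.8-fold, against 0.357%. Sv2a was at 113 CPM in the exon 13 deleted library against 98.4 CPM in the wild-type vector library (ratio 1.15, 95% interval 1.09 to 1.21), and Syt7 at 293 CPM in the exon 13 deleted library against 260.3 CPM in the wild-type vector library (ratio 1.12, 95% interval 1.09 to 1.16). Rab3a was at 58.3 CPM in the exon 13 deleted library against 53.7 CPM in the wild-type vector library (ratio 1.09). The highest ratios were thus found for a vesicle glycoprotein and the slow calcium sensor. Napb was at 100.3 CPM in the exon 13 deleted library against 92.8 CPM in the wild-type vector library (ratio 1.08), and Unc13c at 23.6 CPM in the exon 13 deleted library against 21.8 CPM in the wild-type vector library (ratio 1.08). At the low end Rab3c was at 123 CPM in the exon 13 deleted library against 141 CPM in the wild-type vector library (ratio 0.87, 95% interval 0.83 to 0.91). Among the other members of lowest ratio, Syt4 was at 70.4 CPM in the exon 13 deleted library against 77.8 CPM in the wild-type vector library (ratio 0.91) but had a ratio of 1.12 with nuclei thinned to 2000 UMIs. Syn1 was at 142 CPM in the exon 13 deleted library against 150.2 CPM in the wild-type vector library (ratio 0.95), and Syn3 at 141 CPM in the exon 13 deleted library against 145 CPM in the wild-type vector library (ratio 0.97). Syt1 was at 3416 CPM in the exon 13 deleted library against 3480.4 CPM in the wild-type vector library (ratio 0.98), and its ratio was 1.01 with subclasses weighted equally. Of the 29 members 21 exceeded 1, but 10 of 29 did with TMM scaling; the median log2 ratio was 0.01 against 0.02 over all genes, of which 58.3% exceeded 1.

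In inhibitory nuclei, 0 of 32 members were at least 25% higher, against 3.69% of all genes, and 1 was at most 0.8-fold, against 2.42%. This was Unc13c, at 188 CPM in the exon 13 deleted library against 239 CPM in the wild-type vector library (ratio 0.79, 95% interval 0.73 to 0.86). Unc13c in Sst-like nuclei, where it is highest, was at 586 CPM in the exon 13 deleted library against 726 CPM in the wild-type vector library (ratio 0.81), and Sst-like nuclei numbered 164 of 535 inhibitory nuclei in the exon 13 deleted library against 227 of 765 in the wild-type vector library; the part of this make-up in the inhibitory value was not tested. Syt4 was at 44.1 CPM in the exon 13 deleted library against 54.5 CPM in the wild-type vector library (ratio 0.81) and Sv2c at 51.7 CPM in the exon 13 deleted library against 61.7 CPM in the wild-type vector library (ratio 0.84). Rph3a was at 105 CPM in the exon 13 deleted library against 119 CPM in the wild-type vector library (ratio 0.88), and Syt1 at 2519 CPM in the exon 13 deleted library against 2842 CPM in the wild-type vector library (ratio 0.89). The members of lowest ratio thus included a priming factor, 2 calcium sensors, a vesicle glycoprotein and the Rab3 effector. On the high side Rab3a was at 78.1 CPM in the exon 13 deleted library against 68.5 CPM in the wild-type vector library (ratio 1.14) and Syn3 at 102 CPM in the exon 13 deleted library against 89.99 CPM in the wild-type vector library (ratio 1.13). Syt2 was at 60.4 CPM in the exon 13 deleted library against 56.5 CPM in the wild-type vector library (ratio 1.07), but had a ratio of 0.75 with nuclei thinned to 2000 UMIs. Sv2a was at 192 CPM in the exon 13 deleted library against 182 CPM in the wild-type vector library (ratio 1.05) and Cplx2 at 75.9 CPM in the exon 13 deleted library against 72.3 CPM in the wild-type vector library (ratio 1.05). Of the 32, 12 exceeded 1, with a median log2 ratio of -0.02 against 0.00 over all genes (48.8% above 1). With nuclei thinned to 2000 UMIs, 1 member was past the mark upward and 4 downward, and the share of all genes at that depth is not given here.

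Of the other pathway genes, 52 were measured in excitatory nuclei, with 0 higher and 1 lower past the mark and 31 above 1. Syt17 was at 31.7 CPM in the exon 13 deleted library against 40.5 CPM in the wild-type vector library (ratio 0.78), Rab27b at 52.1 CPM in the exon 13 deleted library against 61.6 CPM in the wild-type vector library (ratio 0.85) and Ppfia1, a liprin, at 43.1 CPM in the exon 13 deleted library against 46.3 CPM in the wild-type vector library (ratio 0.93). Stx4a was at 23 CPM in the exon 13 deleted library against 20.01 CPM in the wild-type vector library (ratio 1.15), Napa, the alpha SNAP, at 35.5 CPM in the exon 13 deleted library against 31.3 CPM in the wild-type vector library (ratio 1.13) and Syngr3, a synaptogyrin of the vesicle membrane, at 30.7 CPM in the exon 13 deleted library against 27.3 CPM in the wild-type vector library (ratio 1.12). Of the 6 genes named, Syt17 was the 1 past the mark. In inhibitory nuclei, of 53 measured, 0 were past the mark upward and 1 downward.

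The wild-type vector library against the ad lib sleep library differs by virus, delivery and SIK3 together, and it shares the ad lib sleep library with the sleep deprivation comparison. In excitatory nuclei, of 29 measured members 0 were at least 25% higher, against 1.87% of all genes, and 0 at most 0.8-fold, against 2.19%. Rab3c was at 141 CPM in the wild-type vector library against 115 CPM in the ad lib sleep library (ratio 1.23, 95% interval 1.18 to 1.29), and Syn3 at 145 CPM in the wild-type vector library against 122 CPM in the ad lib sleep library (ratio 1.19). Cplx2 was at 88.1 CPM in the wild-type vector library against 74.8 CPM in the ad lib sleep library (ratio 1.18), and Cplx1 at 39.7 CPM in the wild-type vector library against 34.3 CPM in the ad lib sleep library (ratio 1.16). Complexins and Rab3c thus lay above the ad lib sleep library in this comparison too, and the shared library means that the 2 comparisons are not separate observations. Syt4 was at 77.8 CPM in the wild-type vector library against 66.8 CPM in the ad lib sleep library (ratio 1.17). At the low end Unc13b was at 133 CPM in the wild-type vector library against 150.5 CPM in the ad lib sleep library (ratio 0.88), Syt7 at 260.3 CPM in the wild-type vector library against 292 CPM in the ad lib sleep library (ratio 0.89) and Rab3a at 53.7 CPM in the wild-type vector library against 59.9 CPM in the ad lib sleep library (ratio 0.90). Unc13c was at 21.8 CPM in the wild-type vector library against 22.5 CPM in the ad lib sleep library (ratio 0.97) but had a ratio of 1.19 with subclasses weighted equally, and Vamp2 was at 56.8 CPM in the wild-type vector library against 57.2 CPM in the ad lib sleep library (ratio 0.99). Of the 29, 24 exceeded 1, against 19 of 29 with mitochondrial genes and Malat1 left out of the total; the median log2 ratio was 0.05 against 0.00 over all genes (51.2% above 1).

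In inhibitory nuclei, 2 of 31 members were at least 25% higher, against 2.46% of all genes, and 0 were at most 0.8-fold, against 3.71%. Stx1a was at 30.9 CPM in the wild-type vector library against 23.6 CPM in the ad lib sleep library (ratio 1.31, 95% interval 1.05 to 1.62), and Napb, the beta SNAP, at 105 CPM in the wild-type vector library against 81.6 CPM in the ad lib sleep library (ratio 1.28, 95% interval 1.14 to 1.44). Syt4 was at 54.5 CPM in the wild-type vector library against 45.8 CPM in the ad lib sleep library (ratio 1.19), Pclo at 777 CPM in the wild-type vector library against 679.7 CPM in the ad lib sleep library (ratio 1.14) and Snap25 at 662 CPM in the wild-type vector library against 582 CPM in the ad lib sleep library (ratio 1.14). These 5 had the highest ratios in the comparison. At the low end Syt2 was at 56.5 CPM in the wild-type vector library against 66.5 CPM in the ad lib sleep library (ratio 0.85), with a ratio of 1.01 after thinning to 2000 UMIs. Syn3 was at 89.99 CPM in the wild-type vector library against 105 CPM in the ad lib sleep library (ratio 0.85) and Rab3a at 68.5 CPM in the wild-type vector library against 71.8 CPM in the ad lib sleep library (ratio 0.95). Rims4 was at 86.4 CPM in the wild-type vector library against 89.3 CPM in the ad lib sleep library (ratio 0.97), and Rims2 at 1028 CPM in the wild-type vector library against 1077 CPM in the ad lib sleep library (ratio 0.95), with a ratio of 1.01 after thinning. Of the 31, 21 exceeded 1, with a median log2 ratio of 0.10 against 0.01 over all genes (52.1% above 1). Of the other pathway genes in excitatory nuclei, 0 of 52 were past the mark in either direction and 34 exceeded 1: Syt14 had a ratio of 1.21 (116 CPM in the wild-type vector library against 96.5 CPM in the ad lib sleep library), Synpr 1.18, Ppfia1 1.18, Napa 0.89, Stx4a 0.90 and Ppfia3 0.91. In inhibitory nuclei 1 of 52 was past the mark upward and 0 downward.

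Within each vector library, excitatory nuclei that carried the vector transcript could be set beside those in which none was seen. The vector was counted as a feature of its own, WPRE_pA. It had 0 UMIs in excitatory nuclei of both libraries without vector, 3038 in the exon 13 deleted and 1309 in the wild-type vector library. Nuclei with at least 3 such UMIs are called vector-rich and those with 0 vector-free. Vector-rich nuclei made up 4.57% of excitatory nuclei in the exon 13 deleted and 3.28% in the wild-type vector library, against 0.8% and 0.68% of astrocyte-like nuclei, in which the synapsin promoter should be silent, and 6.19% and 3.5% of the cluster of low depth. The exon 13 deleted library gave 98 vector-rich against 1597 vector-free excitatory nuclei (median 9962.5 against 9461 UMIs), and the wild-type vector library 90 against 2177 (10032.5 against 8975 UMIs). Nuclei of 1 library share their animals and preparation, so these ratios describe the library, and with so few nuclei all genes spread widely.

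In the exon 13 deleted library, 7 of 28 measured members were at least 25% higher in vector-rich nuclei, against 38.8% of all genes, and 5 were at most 0.8-fold, against 18.6%. The members' counts were thus at or below the shares of all genes, and the values of single members carry the description. The complexins parted. Cplx1 was at 88.8 CPM in vector-rich against 39.1 CPM in vector-free nuclei (ratio 2.27, 95% interval 1.82 to 2.79), and Cplx2 at 34.5 CPM in vector-rich against 93.1 CPM in vector-free nuclei (ratio 0.37, 95% interval 0.26 to 0.51). Unc13b was at 260.2 CPM in vector-rich against 136 CPM in vector-free nuclei (ratio 1.92, 95% interval 1.70 to 2.16). Vector-rich nuclei thus had more Cplx1 and Unc13b and less Cplx2 than vector-free nuclei of the same library. Napb was at 160.3 CPM in vector-rich against 95.3 CPM in vector-free nuclei (ratio 1.68), and Sv2a at 166 CPM in vector-rich against 109 CPM in vector-free nuclei (ratio 1.53). Rims3, Rims4 and Rab3c were also past the mark, at ratios of 1.53, 1.36 and 1.36. On the low side Rph3a was at 66.3 CPM in vector-rich against 117 CPM in vector-free nuclei (ratio 0.57), and Rims2 at 719 CPM in vector-rich against 1069 CPM in vector-free nuclei (ratio 0.67). Snap25 was at 697 CPM in vector-rich against 1011 CPM in vector-free nuclei (ratio 0.69, 95% interval 0.64 to 0.74), and Syt1 at 2534 CPM in vector-rich against 3433 CPM in vector-free nuclei (ratio 0.74, 95% interval 0.71 to 0.77), so both core fusion genes were among the 5. Of the 28 members 15 exceeded 1, with a median log2 ratio of 0.10 against 0.18 over all genes (63.2% above 1).

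Vector-rich nuclei were not spread over subclasses like vector-free nuclei. In the exon 13 deleted library L5 ET-like nuclei were 12.2% of vector-rich against 4.5% of vector-free nuclei, L6 IT-like 20.4% against 10.2%, and L4/5 IT-like 4.1% against 12.6%. With vector-free nuclei weighted to the same make-up, the ratio was 2.16 for Cplx1, 0.39 for Cplx2, 2.20 for Unc13b, 0.69 for Snap25 and 0.75 for Syt1, while Rab3c came to 1.10. Within subclasses, Cplx2 in vector-rich against vector-free nuclei was at 32.5 against 127 CPM in L2/3 IT-like, 24.1 against 42.6 CPM in L5 IT-like, 15.2 against 42.7 CPM in L5 ET-like, 47.6 against 96.4 CPM in L6 IT-like and 51.8 against 125 CPM in L6 CT-like nuclei. It was lower in all 5, on 3 to 11 UMIs in the vector-rich nuclei of each. Unc13b was at 202 against 131 CPM, 333 against 152 CPM, 309 against 81.9 CPM, 281 against 105 CPM and 207 against 104 CPM in the same order, higher in all 5. Cplx1 was at 25.3 against 31.3 CPM in L2/3 IT-like nuclei and higher in vector-rich nuclei of the other 4, up to 203 against 64.1 CPM in L5 ET-like nuclei. L4/5 IT-like nuclei, with 4 vector-rich nuclei, are left out of these counts.

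In the wild-type vector library, 7 of 29 measured members were at least 25% higher in vector-rich nuclei, against 22.1% of all genes, and 5 were at most 0.8-fold, against 10%. The upward count was near the share of all genes. Rims4 was at 85.5 CPM in vector-rich against 51.2 CPM in vector-free nuclei (ratio 1.67), Syt4 at 116 CPM in vector-rich against 76.5 CPM in vector-free nuclei (ratio 1.52) and Syt7 at 369 CPM in vector-rich against 253 CPM in vector-free nuclei (ratio 1.46). Syn3, Syp, Vamp2 and Cplx1 were past the mark at ratios of 1.39, 1.36, 1.35 and 1.29. The members that led in the exon 13 deleted library stood differently here. Cplx2 was at 101 CPM in vector-rich against 88.3 CPM in vector-free nuclei (ratio 1.14, 95% interval 0.94 to 1.39), and Unc13b at 96.5 CPM in vector-rich against 134 CPM in vector-free nuclei (ratio 0.72, 95% interval 0.59 to 0.88). Snap25 was at 873 CPM in vector-rich against 1006 CPM in vector-free nuclei (ratio 0.87), and Syt1 at 3416 CPM in vector-rich against 3488 CPM in vector-free nuclei (ratio 0.98). The intervals of Cplx2, Unc13b, Snap25 and Syt1 in the exon 13 deleted library do not overlap those in the wild-type vector library, a statement on counting error in 1 library each. These members were picked for their values in the exon 13 deleted library. The share of all genes whose intervals part in the same way is not given here. Rph3a was low in vector-rich nuclei of both libraries, at 68.2 CPM in vector-rich against 113 CPM in vector-free nuclei (ratio 0.60) in this one. Stx1a, Rims2 and Pclo were the other members on the low side, at ratios of 0.69, 0.78 and 0.78. Of the 29 members 17 exceeded 1, with a median log2 ratio of 0.12 against 0.10 over all genes (63.4% above 1). The level of vector per nucleus differs between the libraries and was not matched.

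**Figure D5:**
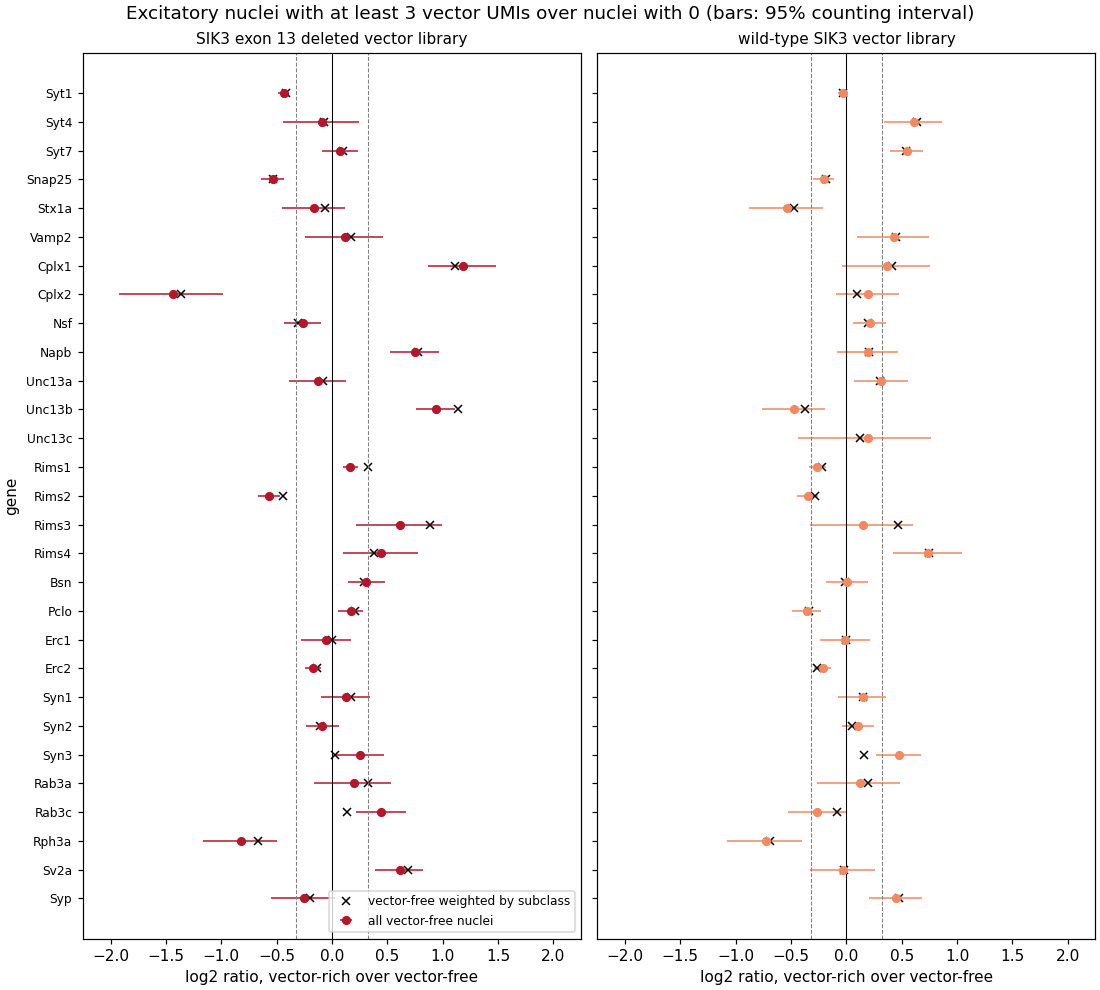
Log2 ratio of CPM of each member, vector-rich over vector-free excitatory nuclei, in the exon 13 deleted (left) and the wild-type vector library (right); bars are 95% counting intervals, crosses the ratio with vector-free nuclei weighted by subclass, dashed lines the 25% mark. Cplx1 and Unc13b lie far right and Cplx2 far left in the exon 13 deleted library.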

How the data were processed

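Nuclei were isolated from frozen sections of primary motor cortex and processed with the Chromium 3' kit v3.1, per the labels' protocols. The authors deposited raw UMI counts for each feature and nucleus; the submitters' processing notes name Cell Ranger 6.1.2 and mm10, and the counts carry no normalization; whether introns were counted, the annotation and the strand setting are not given in the sources used here. Depth was 43655557 to 54070503 UMIs per library. The members and gene lists were chosen with earlier results of these data known.

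Of 28619 barcodes, 27085 had 500 or more detected genes and less than 5% of UMIs from mitochondrial genes. Scrublet, through Scanpy 1.11.5, called 6, 1, 3 and 0 doublets by its automatic threshold in the exon 13 deleted, wild-type vector, sleep deprivation and ad lib sleep libraries, too few to have worked, so the top-scoring share that loading predicts was removed (307, 377, 297 and 696). Counts were scaled to 10000 per nucleus, logged, centred within libraries and clustered (2000 variable genes without members, vector, mitochondrial and sex-linked genes; 30 components; 15 neighbours; Leiden resolution 1). Of 39 clusters, 21 were named from marker lists, with naming thresholds set after the data were seen; unnamed nuclei were 21.21%, 20.4%, 34.84% and 15.74% of the libraries in the same order and enter no class; levels in 1 of these clusters, of low depth, are given beside the results.

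Counts were summed per class and library and scaled to CPM. Levels carry exact Poisson and ratios exact conditional 95% intervals (scipy 1.17.1). With 1 library per group no test was run. Ratios were counted at 25% above 1 or at 0.8 with a mean of at least 20 CPM. The members given with values are the 5 of highest and the 5 of lowest ratio in each comparison and class and those that do not overlap between classes; of other pathway genes, the 3 of highest and the 3 of lowest ratio; 1 gene of that list is not reported here. Alternatives were a floor of 5 CPM, 1.5-fold, TMM factors (edgeR 4.0.16), a total without mitochondrial genes and Malat1, doublets kept, 1000 or more genes, thinning to 2000 UMIs, equal subclass weights and clustering without centring. Interval coverage and calls were tested on simulated Poisson counts. These hold counting error alone, so the spread between nuclei, animals or libraries was not tested. Gene positions are mm10, 1-based, and 17 of the 36 members overlap another counted gene.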

Additional observations from a re-analysis of the deposited data

How the results depend on the processing

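No paired analysis was possible because each group is 1 library, and no replicate could be left out for the same reason. Counting error is the only error that the intervals hold. Depth limits low members: Syt2, Syt3, Syt9, Syt10, Vamp1, Sv2c and Doc2b were under 20 CPM in excitatory nuclei on the mean of 4 libraries, as was Unc13c on the mean of the sleep deprivation and ad lib sleep libraries. The causes of the shifts given here were not tested. Counts of members under the alternatives are given without the share of all genes under the same setting. For sleep deprivation over ad lib sleep in excitatory nuclei, members past the fold mark upward numbered 4 as reported, 0 at 1.5-fold, 8 with TMM factors and 9 with nuclei thinned to 2000 UMIs, and members past it downward numbered 0 as reported, 2 with a floor of 5 CPM, 1 without mitochondrial genes and Malat1 and 1 with doublets kept. In inhibitory nuclei the upward count was 6 as reported and 0 at 1.5-fold, and the downward count 0 as reported and 1 with doublets kept. For the exon 13 deleted over the wild-type vector in inhibitory nuclei, the downward count was 1 as reported, 0 at 1.5-fold, 2 with TMM factors, 4 after thinning, 2 with equal subclass weights and 2 without centring, and the upward count 0 as reported and 1 after thinning. For the wild-type vector over ad lib sleep in excitatory nuclei, the upward count was 0 as reported and 1 with a floor of 5 CPM, 1 with TMM factors and 1 after thinning, and the downward count 0 as reported and 1 with a floor of 5 CPM; in inhibitory nuclei the upward count of 2 became 0 at 1.5-fold. Of the class contrasts, at 1.5-fold in place of 2-fold excitatory over inhibitory gave 4 in place of 2, excitatory over striatal-like 6 in place of 2 and astrocyte-like over excitatory 3 in place of 1. Thinning gave 1 in place of 2 for Pvalb-like over other inhibitory and 2 in place of 4 for the other direction, and leaving out the sleep deprivation library gave 2 in place of 1 for astrocyte-like over excitatory. For vector-rich over vector-free nuclei, the downward count in the exon 13 deleted library was 5 as reported, 8 with a floor of 5 CPM and 2 at 1.5-fold, and in the wild-type vector library 1.5-fold gave 2 in place of 7 upward and 1 in place of 5 downward. Among the members given with values whose reported 95% interval leaves out 1, the ratios that crossed 1 were those of Unc13b after sleep deprivation in excitatory nuclei (1.02 with equal weights), Syt4 (1.12 after thinning) and Syt1 (1.01 with equal weights) for the exon 13 deleted over the wild-type vector in excitatory nuclei, and Syt2 (1.01 after thinning) and Rims2 (1.01 after thinning) for the wild-type vector over ad lib sleep in inhibitory nuclei. Among those whose interval holds 1, Unc13c for the wild-type vector over ad lib sleep in excitatory nuclei (1.19 with equal weights) and Syt2 for the exon 13 deleted over the wild-type vector in inhibitory nuclei (0.75 after thinning) crossed 1 and left the interval, and 6 further values crossed 1 within it. The other alternatives run on these counts, 151 of 180 values, stayed within 1.5 times the reported count.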

Other observations

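Outside neurons the module was not uniform. Summed over the 36 members, oligodendrocyte precursor-like nuclei, which receive synapses from neurons, were at 6257 CPM in the exon 13 deleted library, 6547 CPM in the wild-type vector library, 6854 CPM in the sleep deprivation library and 5482 CPM in the ad lib sleep library. Oligodendrocyte-like nuclei of the same libraries were at 2881, 3345, 3029 and 3213 CPM in this order, below the precursor-like nuclei in all 4. Endothelial-like nuclei were at 5918, 5559, 5289 and 4962 CPM. Vamp1, highest among neurons in Pvalb-like nuclei, was at 46.8 CPM in the exon 13 deleted library, 53 CPM in the wild-type vector library, 61.4 CPM in the sleep deprivation library and 33.8 CPM in the ad lib sleep library in astrocyte-like nuclei, where the sleep deprivation value was the highest and the ad lib sleep value the lowest (ratio 1.82). Unc13c in astrocyte-like nuclei had its lowest value in the sleep deprivation library, at 324 CPM in the sleep deprivation library against 483 CPM in the ad lib sleep library (ratio 0.67, 95% interval 0.59 to 0.75). With 1 library per group neither difference could be tested, and the part of free RNA in the glial levels was not tested.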
